A study of Arabidopsis thaliana with 8 samples.

Results

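The pericentromere of chromosome 2 of Arabidopsis thaliana was described through every entry of the deposited expression tables that lay on that chromosome with its midpoint between 1 and 7 Mb, leaving out 1 entry that the rule names. The rule used position alone and took 1614 of the 34133 entries. Their levels were given as FPKM, fragments scaled to transcript length and to the library's mapped total, from oligo(dT)-enriched RNA of whole seedlings of the Col-0 strain, 10 days old and raised on plates in long days. The 8 libraries were WT (2 libraries), the single mutants mom1 (2 libraries), pial2 and nrpe1 (1 library each), and the double mutants pial1/2 and mom1pial2 (1 library each). Alleles are not given in the labels used here. The authors compared each mutant library with 1 WT library in a table of its own. The nrpe1, pial1/2 and mom1 replicate 1 tables used WT replicate 1. The pial2, mom1pial2 and mom1 replicate 2 tables used WT replicate 2, so comparisons within a set share their control. Nothing in the labels says that the 2 libraries of WT or of mom1 came from separate plantings, and the spread between them may be technical.

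A pericentromere flanks the centromere and is packed as heterochromatin, with many transposons and their remnants and few active genes. MOM1 is a chromatin protein that keeps such sequences silent, largely without loss of their DNA methylation. PIAL1 and PIAL2 resemble the ligases that attach SUMO to proteins, and the study asked about their part in silencing together with MOM1. RNA polymerase V, which acts in RNA-directed DNA methylation, needs NRPE1 as its largest subunit. The chromosome 2 pericentromere also carries a large insertion of mitochondrial DNA.

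Stretches of genome at entries of the runs described below, and at the 1 entry past 2-fold higher in all 6 tables, are shown first, so that the entries can be recognised. They are RefSeq's TAIR10.1 assembly, read 5′ to 3′ on the strand of the entry. In the first 4, the 250 bases before the entry are in lower case and its first 50 bases in capitals. These are the pseudogenes AT2G11780 (chr2:4729428-4729727, plus strand), AT2G10980 (chr2:4336023-4336322, plus strand), AT2G15810 (chr2:6882571-6882870, plus strand) and AT2G04460.1 (chr2:1548950-1549249, minus strand). In the window of AT2G15810, the lower-case bases up to 6882741 belong to the pseudogene AT2G15800, on the same strand.
AT2G11780: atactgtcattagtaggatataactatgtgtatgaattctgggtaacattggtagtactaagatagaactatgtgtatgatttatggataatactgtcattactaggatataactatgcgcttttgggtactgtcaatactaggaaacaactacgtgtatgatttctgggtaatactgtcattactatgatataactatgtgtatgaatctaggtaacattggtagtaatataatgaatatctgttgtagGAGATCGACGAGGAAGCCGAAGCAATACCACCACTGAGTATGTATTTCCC
AT2G10980: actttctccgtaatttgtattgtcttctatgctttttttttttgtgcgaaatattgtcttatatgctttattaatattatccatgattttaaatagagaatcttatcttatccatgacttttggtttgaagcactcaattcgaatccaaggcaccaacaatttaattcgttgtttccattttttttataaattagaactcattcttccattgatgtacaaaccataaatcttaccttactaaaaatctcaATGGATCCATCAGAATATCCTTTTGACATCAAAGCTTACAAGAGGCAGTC
AT2G15810: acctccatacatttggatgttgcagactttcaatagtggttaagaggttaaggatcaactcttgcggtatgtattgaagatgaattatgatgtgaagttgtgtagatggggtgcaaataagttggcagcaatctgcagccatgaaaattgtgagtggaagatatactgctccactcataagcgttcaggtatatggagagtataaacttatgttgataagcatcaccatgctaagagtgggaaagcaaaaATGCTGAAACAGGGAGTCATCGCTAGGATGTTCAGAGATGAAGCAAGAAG
AT2G04460.1: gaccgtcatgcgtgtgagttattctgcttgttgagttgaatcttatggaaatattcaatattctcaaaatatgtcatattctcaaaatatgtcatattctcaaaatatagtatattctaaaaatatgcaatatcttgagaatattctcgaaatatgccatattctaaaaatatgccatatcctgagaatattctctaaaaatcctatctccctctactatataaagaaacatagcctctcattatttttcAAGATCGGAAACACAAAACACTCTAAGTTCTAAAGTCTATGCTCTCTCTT
They held 5, 4, 3 and 4 CG dinucleotides, against a median of 7 and quartiles of 4 and 10 over the 1499 member windows of the same length, of which 98.6% held at least 1. The G+C content was 34.3%, 29.7%, 40.3% and 29.7%, beside a median of 35.7% over those windows.

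The short protein-coding entry AT2G11778 (chr2:4727972-4728239, plus strand) is shown whole in capitals, after its 100 preceding bases, because it reached the highest level of the 14 entries described below as higher in both mom1 comparisons. The last sequence (chr2:6880725-6880998, plus strand) is the place where SQN, on the minus strand, and the pseudogene AT2G15800, on the plus strand, overlap head to head. Its capitals mark the 74 shared bases, with 100 bases on each side.
AT2G11778: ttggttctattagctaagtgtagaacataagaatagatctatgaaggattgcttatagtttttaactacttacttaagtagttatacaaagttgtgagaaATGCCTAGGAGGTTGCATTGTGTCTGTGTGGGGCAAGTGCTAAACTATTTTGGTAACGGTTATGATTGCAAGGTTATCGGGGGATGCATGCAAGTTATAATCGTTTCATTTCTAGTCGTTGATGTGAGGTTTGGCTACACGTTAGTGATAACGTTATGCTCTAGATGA
SQN_AT2G15800: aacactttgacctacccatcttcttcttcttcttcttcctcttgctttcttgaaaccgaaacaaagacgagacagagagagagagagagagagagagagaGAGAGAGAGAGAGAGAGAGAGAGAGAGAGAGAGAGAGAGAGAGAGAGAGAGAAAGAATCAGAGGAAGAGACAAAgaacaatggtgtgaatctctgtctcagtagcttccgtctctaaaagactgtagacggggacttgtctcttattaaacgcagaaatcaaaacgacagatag
The overlap is mostly a GA repeat. The library protocol used here does not state that strand was kept, so reads from these 74 bases cannot be assigned to either gene.

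Of the 1614 entries, 1596 matched the RefSeq annotation by locus. They were 821 pseudogenes, the class under which the annotation holds transposon remnants, 603 protein-coding genes, 124 transcribed pseudogenes and 48 non-coding RNA genes, with 18 not matched. In WT most were at or near 0. There, 963 were at 0 FPKM in both WT libraries and 1290 were under 1 FPKM in both. The 324 entries at 1 FPKM or more in a WT library comprised 274 protein-coding genes, 18 transcribed pseudogenes, 16 pseudogenes, 15 non-coding RNA genes and 1 unmatched entry. Across all 8 libraries 1254 entries never reached 1 FPKM, and 707 were at 0 throughout.

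The tissue label was checked against marker genes outside the window. The summed level of 4 leaf markers was 26190 to 29912 FPKM in the 8 libraries, while 4 flower markers summed to 2.28 to 5.27 FPKM and 4 seed markers, 2 of them at 0 in some library, to 0.487 to 14.9 FPKM. The 4 root markers summed to 176 to 215 FPKM in the 4 libraries of the WT replicate 1 set and to 366 to 491 FPKM in the other 4. In bulk seedlings, fewer cells of a type and less RNA per cell cannot be told apart. The library sets also differed inside the window. Between the WT libraries, with 1 FPKM added to each level, 33 members (2.04%) were past 2-fold higher in replicate 2 and 32 (1.98%) were lower. The shares of all entries were 4.93% and 4.19%. Only entries at 1 FPKM or more in a WT library can pass. Of these, 65 of 324 members (20.1%) passed, beside 15.4% of all such entries. Mutants were therefore compared within tables. The part of the root markers or of the library set in the results was not tested.

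In mom1 a small group of members was far higher than in WT, and it lay in few places. The ratio used throughout is log2((mutant FPKM + 1)/(WT FPKM + 1)), with a pseudocount of 1 FPKM that understates the change of low entries, and an entry is called past 2-fold where this ratio reaches 1 in size. In both mom1 tables, a total of 14 members (0.867%) were past 2-fold higher, beside 0.27% of all entries. None was past 2-fold lower in both, beside 0.0498% of all entries. Elsewhere the same count gave 61 of 5510 entries (1.11%) in the pericentromeric windows of the other chromosomes and 17 of 27008 (0.0629%) outside them. limma, fitted to the paired ratios of the 20517 entries with 1 FPKM or more in a WT or mom1 library, called 4 members higher at an adjusted p below 0.05, beside 0.0877% of all entries fitted. It called 0 lower, beside 0% of all entries. At an unadjusted p below 0.05 it had 32 members higher and 9 lower, beside 2.76% and 3.32%. Of the 349 members in this fit, 26 entered only through their level in mom1, among them 3 of the 4 called (AT2G11780, AT2G10980 and AT2G15810), so for these the adjusted p is given as a description. SQN was the called member that passed the filter in WT. The fit rests on 2 ratios per entry, and limma made 0 calls among members when the libraries were not paired (lowest adjusted p = 0.147) or when the filter was dropped (lowest adjusted p = 0.121).

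**Figure D1:**
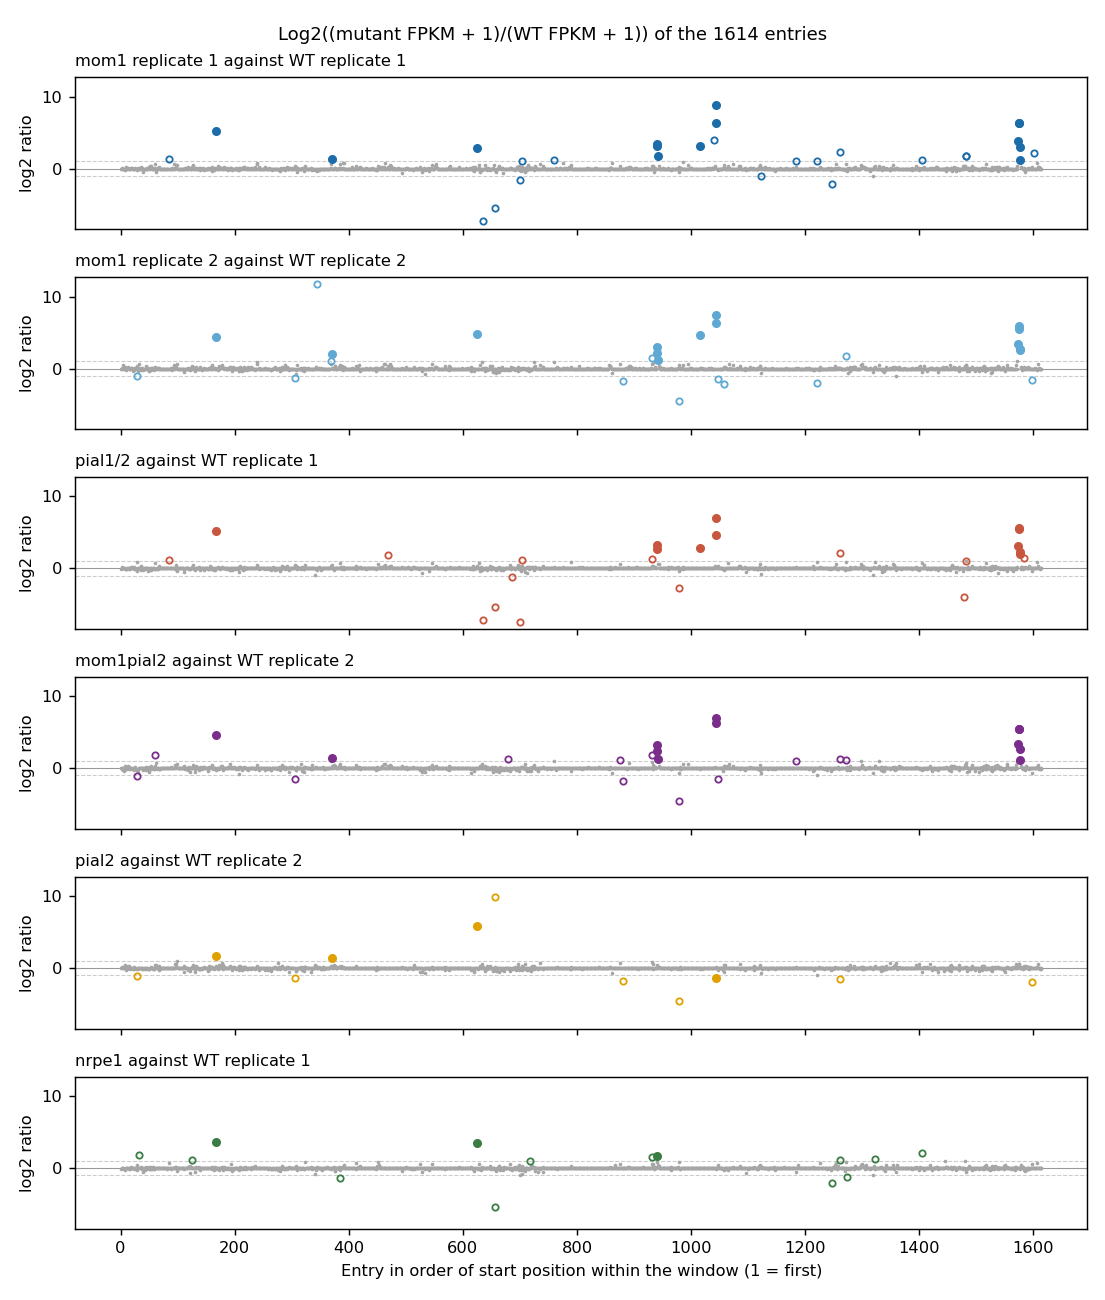
Each panel plots, for 1 mutant library, the log2 ratio to WT (vertical axis) of the 1614 entries in order of start position (horizontal axis). Filled points are the 14 entries past 2-fold higher in both mom1 tables where they are past 2-fold in that panel, open points are other entries past 2-fold, grey points are the rest and dashed lines mark 2-fold. The high points fall in the same few places in the mom1, pial1/2 and mom1pial2 panels.

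The 14 entries were 8 of pseudogenes and 6 of protein-coding genes. The pseudogenes AT2G10980 and AT2G15815 each count as 2 entries, with and without suffix. Of the 14, 10 formed 3 runs of neighbouring entries. On TAIR10 coordinates these lay at 4335137 to 4337467 (3 entries, 2 intervals), 4728072 to 4732966 (2 entries, 2 intervals) and 6877774 to 6887542 (5 entries, 3 intervals). Counted by 1-Mb bin from 1 to 7 Mb, the 14 were 1, 1, 1, 6, 0 and 5. The bin with 6 was also the one richest in pseudogenes, at 75.9% of its 257 entries. Pseudogenes made up 25.8% of the first bin and 36% of the last.

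The run from 4728072 held 2 entries. In AT2G11780, a pseudogene of 3289 bases, the WT libraries had 0.198 and 0.23 FPKM (replicates 1 and 2, in this order throughout) and the mom1 libraries 93 and 98.1. It was at 98.1 FPKM in mom1pial2, 27.5 in pial1/2, 0.405 in pial2 and 0.144 in nrpe1. The 4 libraries of mom1, mom1pial2 and pial1/2 lay far above the other 4. The entry was chosen for its height in mom1, so the gap between mom1 and WT is a description only. The mean log2 ratio in mom1 was 6.31 ± 0.03 (SD, n = 2 tables; limma adjusted p = 0.0199, and 0.121 with no filter). AT2G11780 entered the fit only through mom1. AT2G11778, of 168 bases, lies just before it on the same strand. It was at 1.87 and 16.5 FPKM in WT, at 1286 and 3126 FPKM in mom1, 377 in pial1/2 and 2238 in mom1pial2, and at 5.92 in pial2 and 1.87 in nrpe1. Its ratio of 8.14 ± 0.94 (SD, n = 2 tables) in mom1 missed the threshold (limma adjusted p = 0.0513). An entry this short has uncertain FPKM, since few fragments fit in it.

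The entry before this run, AT2G11775.1, ends 2852 bases away. It was at 0.272 FPKM in mom1 replicate 1, 0.206 in pial1/2 and 0.0911 in mom1pial2, and at 0 in the other 5 libraries. Before that, AT2G11773, of 108 bases, was at 14.7 FPKM in mom1 replicate 1, a log2 ratio of 3.98, and at 0 in the other 7. On the other side, AT2G11790, 1685 bases after it, was at 0 in all 8. Of the 50-base words of AT2G11778, 0% occurred elsewhere in the genome, and 10.6% of those of AT2G11780 did.

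The run from 4335137 held AT2G10975, AT2G10980 and its suffixed copy AT2G10980.1. AT2G10980 was at 0.0561 and 0.0654 FPKM in WT, 8.07 and 7.68 in mom1, 6.02 in pial1/2, 8.73 in mom1pial2, 0.457 in pial2 and 0.867 in nrpe1. Its log2 ratio in mom1 was 3.06 ± 0.05 (SD, n = 2 tables; limma adjusted p = 0.0257, and 0.131 with no filter), and it too entered the fit only through mom1. AT2G10975, a protein-coding gene, was at 0 and 0.167 FPKM in WT, 9.81 and 4.08 in mom1, 8.56 in pial1/2, 4.99 in mom1pial2, 0.18 in pial2 and 2.1 in nrpe1. Its ratio in mom1 was 2.78 ± 0.93 (SD, n = 2 tables; limma adjusted p = 0.341), and it likewise entered the fit only through mom1. This is the run in which nrpe1 stood above WT too, at a log2 ratio of 1.63 for AT2G10975 and 0.82 for AT2G10980, although below mom1 in each case. The neighbour AT2G10970 was at 0 in all 8 libraries. AT2G10990 on the other side was low but above its WT in each table. It was at 0.0357 and 0.0417 FPKM in WT, 0.357 and 0.354 in mom1 and 0.544 in pial1/2. In mom1pial2 it was at 0.288, in pial2 at 0.179 and in nrpe1 at 0.321, and its log2 ratios ran from 0.18 to 0.58.

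The run from 6877774 is the longest, at 9.769 kb, and the one with an active gene. SQN (AT2G15790, SQUINT) encodes a cyclophilin that promotes microRNA activity and so holds back the change from the juvenile to the adult phase. It was at 12.2 and 19.6 FPKM in WT, 191 and 226 in mom1, 112 in pial1/2, 209 in mom1pial2, 26.8 in pial2 and 12.3 in nrpe1. SQN rose in mom1 by 3.66 ± 0.28 on the log2 scale (SD, n = 2 tables; limma adjusted p = 0.0393, and 0.216 with no filter). With a pseudocount of 0.1 FPKM its ratio was 3.74 and no longer passed.

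Beside SQN, the pseudogenes were near 0 in WT. AT2G15810, of 3955 bases, was at 0.474 and 0.275 FPKM in WT, 118 and 74 in mom1, 63 in pial1/2, 56 in mom1pial2, 0.861 in pial2 and 0.459 in nrpe1. Its log2 ratio in mom1 was 6.11 ± 0.32 (SD, n = 2 tables; limma adjusted p = 0.0227, and 0.164 with no filter), and it entered the fit only through mom1. In pial2 its log2 ratio of 0.54 had a q of 0.000641 in the authors' deposited table. AT2G15800 was at 1.3 and 0.623 FPKM in WT, 192 and 71.2 in mom1, 112 in pial1/2, 74.4 in mom1pial2, 1.36 in pial2 and 1.35 in nrpe1, a ratio in mom1 of 5.93 ± 0.65 (SD, n = 2 tables; limma adjusted p = 0.0513). AT2G15815 was at 0 in both WT libraries, 6.85 and 5.14 FPKM in mom1, 2.99 in pial1/2, 5.69 in mom1pial2 and 0 in pial2 and nrpe1. Its ratio in mom1 was 2.80 ± 0.25 (SD, n = 2 tables; limma adjusted p = 0.0513), and it too entered the fit only through mom1.

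Across the run the mom1, pial1/2 and mom1pial2 libraries were thus above WT at each of the 5 entries, while the log2 ratios of pial2 and nrpe1 stayed under 1 in size. The next gene after it, OTP51, which encodes an organelle RNA-splicing factor, starts 997 bases on. OTP51 was at 9.2 and 9.8 FPKM in WT and at 8.54 to 11.2 FPKM in the 6 mutant libraries. Its log2 ratios ran from -0.09 to 0.25. The gene before the run, AT2G15780, was at 0.99 FPKM in mom1 replicate 2 and 0.766 in mom1pial2 against 0 in their WT, log2 ratios of 0.99 and 0.82, and at 0.0478 in pial2. In the first set it was at 0.038 in WT and nrpe1, 0.304 in mom1 replicate 1 and 0.232 in pial1/2. SQN and AT2G15800 were the one pair of different loci among the 14 to share a 25-base word, and they shared it through the overlap.

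**Figure D2:**
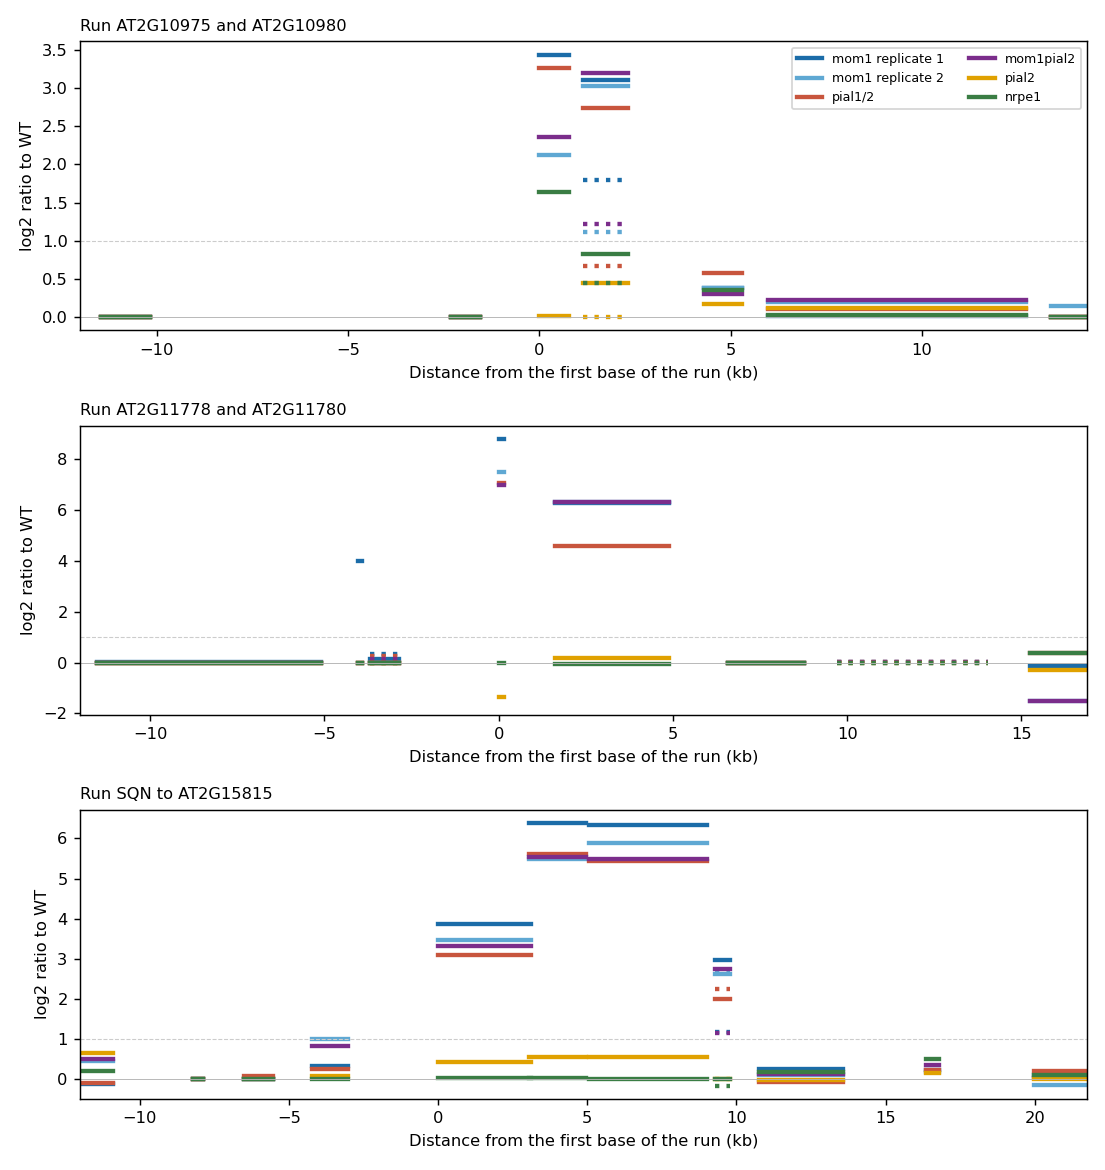
Each panel is 1 of the 3 runs, with the 4 entries on each side where they fall within 12 kb. Bars span each entry, in kb from the first base of the run (horizontal axis), at its log2 ratio to WT (vertical axis), 1 colour per mutant library, dotted for entries with a transcript suffix, and the dashed line marks 2-fold. In the run of SQN the nrpe1 bars lie near 0. The pial2 bars there stay under 2-fold, at 0.41 for SQN, 0.53 for AT2G15800 and 0.54 for AT2G15810. OTP51, which starts 997 bases after the run, is near 0 in all 6.

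AT2G04460.1, a pseudogene of 1462 bases at 1547538 to 1548999, stood alone. It was at 2.1 and 2.78 FPKM in WT, 113 and 74 in mom1, 110 in pial1/2, 91.4 in mom1pial2, 38.8 in nrpe1 and 11.9 in pial2. All 6 mutant libraries were above both WT libraries, and it was the 1 member past 2-fold higher in all 6 tables. Its ratio was 4.76 ± 0.63 in mom1 (SD, n = 2 tables; limma adjusted p = 0.0661), 3.68 in nrpe1 and 1.76 in pial2. The neighbouring NUDT6, a Nudix hydrolase gene 2075 bases away, was at 2.11 and 1.75 FPKM in WT and at 1.48 to 2.36 in the mutants.

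The other 3 of the 14 rested on low or doubtful values. AT2G05915 was at 0.188 and 0 FPKM in WT, 2.13 and 2.87 in mom1, 1.82 in mom1pial2, 1.7 in pial2, 0.574 in pial1/2 and 0.188 in nrpe1. It lies within AT2G05914 on the opposite strand, so the genes' reads cannot be told apart. AT2G11522, of 126 bases, was at 7.69 and 24.3 FPKM in mom1 and 5.87 in pial1/2 and at 0 in the other 5 libraries. AT2G07684, of 111 bases, was at 6.54 and 26.9 FPKM in mom1, 54.5 in pial2 and 9.82 in nrpe1, and at 0 in the other 4 libraries. All of its 50-base words (100%) also occur in the mitochondrial genome. In this gene the level in mom1 replicate 1 was 0.666 times that in nrpe1. One fragment in the lowest entries was worth 0.666 times as much in mom1 replicate 1 as in WT replicate 1 and the same in nrpe1 as in WT replicate 1. Between mom1 replicate 2 and pial2 the ratio of levels was 0.493, while the worth of a fragment in them was nearly equal.

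**Figure D3:**
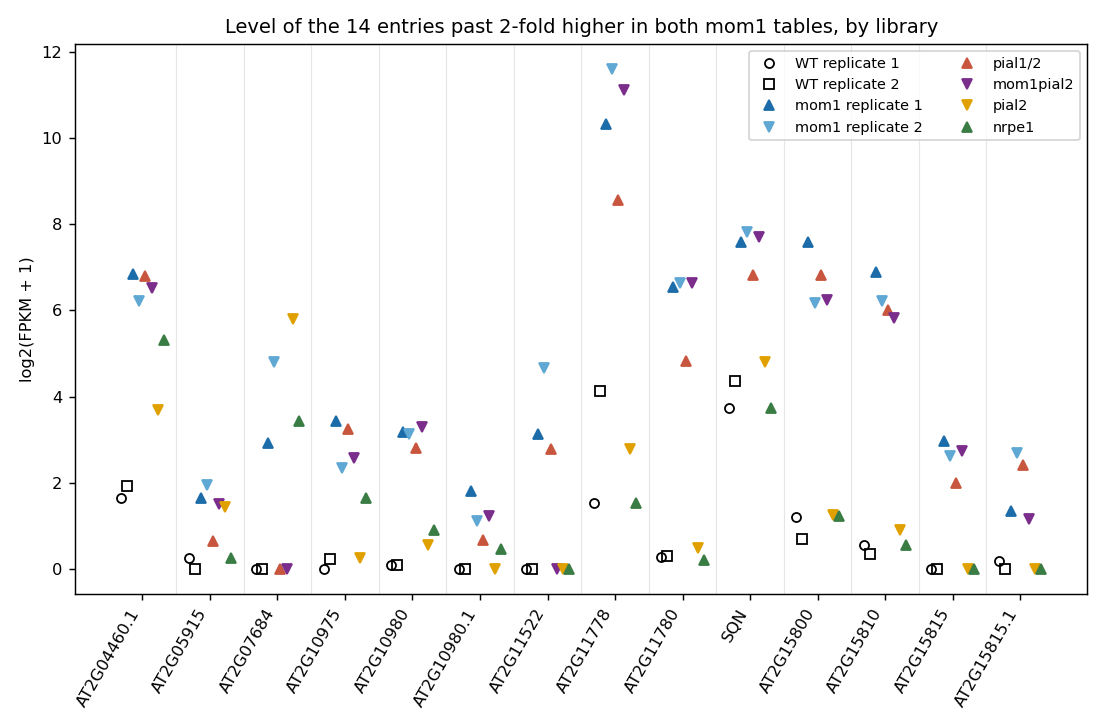
The plot gives log2(FPKM + 1) (vertical axis) of the 14 entries past 2-fold higher in both mom1 tables (horizontal axis, in order of position) in each of the 8 libraries, with open symbols for WT. AT2G11778 has the highest levels, at 1286 and 3126 FPKM in mom1. In the run from SQN to AT2G15815.1, the log2 ratios of pial2 and nrpe1 to WT are under 1 in size, with AT2G15810 at 0.54 in pial2.

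The pial1/2 double mutant gave 18 members past 2-fold higher and 6 lower, beside 0.495% and 0.316% of all entries. The mom1pial2 double mutant gave 19 and 5, beside 0.63% and 0.504%. Each has 1 library, so these differences have no replicate check. Of the 14 members, 11 were past 2-fold higher in pial1/2 and 12 in mom1pial2, with median log2 ratios of 2.94 and 2.97, and 10 were so in both as well as in both mom1 tables. The medians of the 14 in the mom1 tables were 3.28 and 3.89. Those tables share their WT library with pial1/2 and mom1pial2 respectively. The 14 were chosen by their height in the mom1 tables, so these medians cannot rank the mutants.

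Levels in pial1/2 were also set beside those in mom1. Set across tables that were normalized separately, where the shared WT library differed by a factor of 0.995, AT2G04460.1 in pial1/2 had 96.8% of its level in mom1 replicate 1. AT2G10975 had 87.2% and AT2G10980 74.6%. In the SQN run the value was 58.4% for SQN, 58.2% for AT2G15800, 53.4% for AT2G15810 and 43.6% for AT2G15815. In the AT2G11780 run it was 29.3% for AT2G11778 and 29.6% for AT2G11780. These shares rest on 1 library of pial1/2 and on mom1 replicate 1, for entries chosen as high in mom1, which can lower the shares. The mom1 libraries themselves differed, with AT2G15800 at 192 and 71.2 FPKM and SQN at 191 and 226. The suffixed AT2G10980.1 had 23.8% and AT2G15815.1 had 278%. For mom1pial2 against mom1 replicate 2, with a shared-library factor of 1.02, the shares ran from 71.6% for AT2G11778 to 124% for AT2G04460.1 over the same 9 entries. Within runs they were 71.6% and 100% for AT2G11778 and AT2G11780, and 122% and 114% for AT2G10975 and AT2G10980.

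In pial2, 4 members were past 2-fold higher and 7 lower, beside 0.428% and 0.492% of all entries. In nrpe1, 10 were higher and 4 lower, beside 0.539% and 0.296%. Of the 14 members, 3 were past 2-fold higher in pial2 (AT2G04460.1, AT2G05915 and AT2G07684) and 3 in nrpe1 (AT2G04460.1, AT2G07684 and AT2G10975). Their median log2 ratio was 0.30 in pial2 and 0.01 in nrpe1. No run of neighbours was found in either table.

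Taken singly, mom1 replicate 1 had 25 members past 2-fold higher and 5 lower, beside 0.627% and 0.372% of all entries. For mom1 replicate 2 the counts were 18 and 8, beside 0.686% and 0.58%. Each added a run of its own. In replicate 1, AT2G15040 (RLP18), a transcribed pseudogene named as a receptor-like protein, went from 0.894 to 5.16 FPKM and its neighbour AT2G15042 from 0.705 to 4.78. In replicate 2 they went from 0.27 to 0.779 and from 0.332 to 0.871 FPKM, and their pial1/2 levels were 2.76 and 2.47. In mom1 replicate 2 the added run was AT2G05914 with AT2G05915, which share an interval.

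In the authors' deposited tables, q below 0.05 held for 20 members up and 1 down of 431 tested in mom1 replicate 1. These were 4.64% and 0.232%, beside 0.999% and 1.12% of all entries tested there. For mom1 replicate 2 it held for 14 and 5 of 398 (3.52% and 1.26%, beside 0.979% and 1.36%). For pial1/2 the authors' deposited table gave 19 and 1 of 400 (4.75% and 0.25%, beside 0.7% and 0.489%). For mom1pial2 it gave 16 and 3 of 390 (4.1% and 0.769%, beside 0.824% and 1.16%). For pial2 it gave 5 and 4 of 378 (1.32% and 1.06%, beside 0.844% and 1.6%). For nrpe1 it gave 14 and 8 of 402 (3.48% and 1.99%, beside 1.2% and 0.67%). These calls compare 2 libraries each. AT2G09187, a pseudogene of 6471 bases, was among them while lying at the edge of 2-fold: it was at 0 and 0.00515 FPKM in WT, 1.21 and 0.929 in mom1, 0.994 in mom1pial2 and 0.117 in pial1/2. Its q in the authors' deposited table was 3.81e-16 for mom1 replicate 1 and 5.02e-05 for mom1 replicate 2.

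Entries whose identifier carries a transcript suffix numbered 316, all pseudogenes, and 97 of them had a partner without suffix over the same interval. Past 2-fold higher in both mom1 comparisons were 3 of the 316 (0.949%) and 11 of the 1298 entries without suffix (0.847%). Over all entries these shares were 1.27% of 1973 with suffix and 0.208% of 32160 without. Of the 97 pairs, 6 reached 1 FPKM in either member and 3 in both. In the pair of AT2G10980 the entry without suffix had 8.07 and 7.68 FPKM in mom1 and the suffixed one 2.47 and 1.17. In the pair of AT2G15815 it was 6.85 and 5.14 against 1.54 and 5.44 FPKM. The paired entries cover the same bases, so how reads were divided between them was set in the authors' counting, and such entries are uncertain one by one.

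By class, 8 of the 821 pseudogenes (0.974%) were past 2-fold higher in both mom1 tables, beside 1.09% of all 4483 pseudogene entries. Among protein-coding genes the count was 6 of 603 (0.995%), beside 0.131% of all 26683. None of the 124 transcribed pseudogenes or the 48 non-coding RNA genes was. The 14 had lengths with a median of 984 bases, and 3 of them were under 200 bases. Those 3, AT2G07684, AT2G11522 and AT2G11778, are all among the 6 protein-coding genes. AT2G05915, also among the 6, reached at most 2.87 FPKM. SQN was the 1 of the 6 at 5 FPKM or more in both WT libraries.

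Protein-coding genes active in WT mostly stayed near their WT level. Of the 191 protein-coding members at 5 FPKM or more in both WT libraries, between 94.8% and 96.9% lay within 0.5 of 0 on the log2 scale in each of the 6 tables, and SQN was the 1 past 2-fold in both mom1 tables. Their median log2 ratio was 0.03 at most. The photosynthesis genes LHCB2.1 and LHCB2.2, which encode chlorophyll-binding antenna proteins, had log2 ratios between -0.31 and 0.19. CAS1, which makes cycloartenol for sterols, lay between -0.16 and 0.02, and AGT, a photorespiratory aminotransferase, between -0.38 and -0.11. NIR1, the nitrite reductase, was at 176 and 144 FPKM in WT and reached 0.65 in mom1pial2 and 0.50 in mom1 replicate 2. OPR3, which makes a jasmonate precursor, went from 24.5 to 42 FPKM in mom1 replicate 1, with a ratio of 0.76, and from 25.9 to 30.5 in replicate 2, with 0.23. Of the 7 genes listed for light, metabolism and chaperones, 1 passed limma in mom1, SQN.

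None of the 4 listed regulators was past 2-fold in any table. These were SEP4, a floral MADS-box factor, the WRKY factors WRKY3 and ZAP1, and ABH1, a cap-binding protein. Of the 11 stress and defence genes, 10 entered the limma fit and 0 were called. LURP1, a gene induced by pathogens, was at 7.76 and 9.63 FPKM in WT, 18.7 and 6.34 in mom1, 14.3 in pial1/2, 7.92 in mom1pial2, 6.82 in pial2 and 36.9 in nrpe1. It was above its WT in the 3 tables of WT replicate 1 and below it in the 3 of WT replicate 2. Its log2 ratio was highest in nrpe1, at 2.11, with a q of 7.17e-10 in the authors' deposited table. Apart from WT and mom1 the library sets hold different mutants, so set and genotype cannot be told apart there. SERK4, a receptor kinase of immune signalling, had its highest log2 ratio in nrpe1 (0.63), at 14.7 FPKM against 9.11 in WT. Its q there was 0.000172 in the authors' deposited table. In mom1 replicate 2 its ratio was 0.61, at 8.92 against 5.49. PRB1, HB1, SOT12, RIPK, COR413-PM1 and NUDT6 stayed within 2-fold of WT in each table, as did UGT73B4 and UGT73B5. Of these, HB1 was called up in pial2 in the authors' deposited table, with a q of 0.0104. ALD1 was at most 0.501 FPKM.

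Members past 2-fold lower than WT formed no run in any table, and several of the more abundant ones were lower in the WT replicate 2 set alone. AT2G05510 had 247 FPKM in WT replicate 2 and 90.1 to 101 in the mutants of that set, but 142 in WT replicate 1 and 144 to 196 in the mutants of the first set. MGDC (AT2G11810), which encodes a galactolipid synthase, was at 13.4 FPKM in WT replicate 2 and at 4.1 in mom1 replicate 2 and 4.07 in mom1pial2, with 11.1 in pial2. In the other set it was at 2.22 in WT and 1.91 to 3.22 in the mutants. AT2G16005 was at 27.1 FPKM in WT replicate 2, 7.89 in mom1 replicate 2, 17 in mom1pial2 and 6.9 in pial2. In the first set it lay between 5.09 and 10.2. For these genes 1 WT library, replicate 2, stood above the other 7. That library also had the highest sum of the seed markers, at 14.9 FPKM against 0.487 to 7.24 in the other 7, and their part in these values was not tested. In nrpe1, AT2G13550 was at 1.77 against 5.73 FPKM in its WT, and the non-coding AT2G06002 at 0.833 against 3.67. In pial1/2, AT2G15880 was at 66.6 against 24.6 FPKM, a ratio of 1.40, and at 21.1 to 25.9 in the other 2 mutants of that set.

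Very short entries accounted for many of the remaining differences. In 1 table or more, 55 members were past 2-fold, 40 of them higher and 19 lower in some table, and 18 of the 55 (32.7%) were under 200 bases, against 72 of all 1614 (4.46%). AT2G05765, a non-coding RNA gene of 79 bases, reached 3450.4 FPKM in mom1 replicate 2, the other 3 libraries of that set being at 0, and lay between 713 and 918 FPKM in the first set. AT2G11271, of 126 bases, was at 22.9 FPKM in WT replicate 2 and at 0 in the 3 mutants compared with it.

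The mitochondrial insertion was looked at through the 155 entries with locus numbers from AT2G07600 to AT2G07899, which also take in entries around it. Of these, 128 shared 50-base words with the mitochondrial genome, 112 of them over more than 90% of their words. Those 128 lay between 3239657 and 3507323, and their reads may come from either genome. The rest, among them MCM5 and ABCC13, shared none. In WT, 23 of the 155 reached 1 FPKM, MCM5 and ABCC13 included. Past 2-fold, 5 were higher and 6 lower in WT replicate 2 than in WT replicate 1. The shares of all entries were 4.93% and 4.19%. Only entries at 1 FPKM or more in a WT library can pass, and of all such entries 15.4% did. The transcribed pseudogene AT2G07783 was at 6.71 FPKM in WT replicate 2 and at 5.66 to 6.79 in its mutants, against 0.0761 to 0.131 in the 4 libraries of the first set. AT2G07732 had the opposite order, at 6.69 to 10.8 FPKM in the first set and 0 to 0.0871 in the second. Among its tRNA entries, AT2G07748, AT2G07756 and AT2G07792 had signal in some library, and the rest were at 0 in all 8. AT2G07792, of 75 bases, was at 980 FPKM in pial2 and 41.5 in WT replicate 1, and at 0 in the other 6 libraries.

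The 146 entries of the mitochondrial genome itself were listed at 0 in all 4 libraries of the WT replicate 1 set, and summed to 480 to 864 FPKM in the other 4. How the mitochondrial genome was handled in the authors' processing of each set is not given in the sources used here, and its part in the insertion values was not tested.

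**Figure D4:**
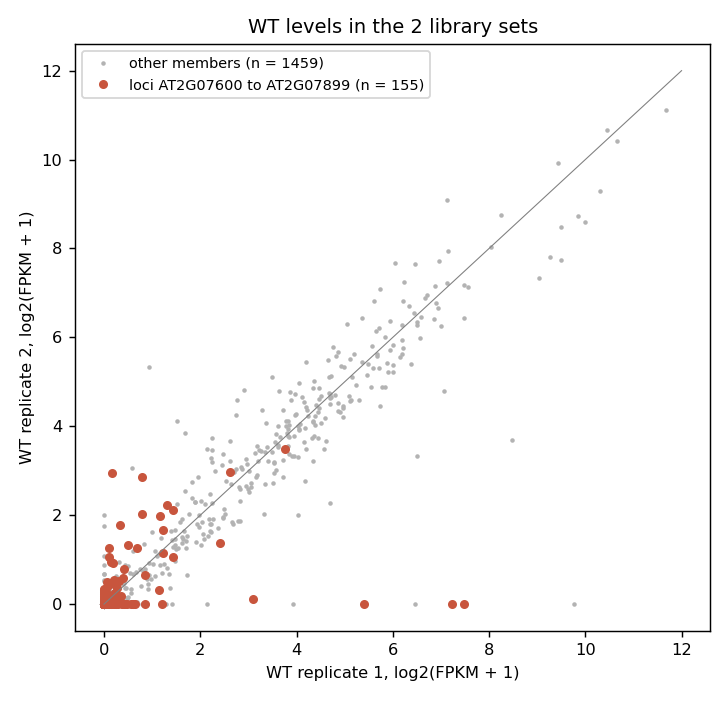
Each point is 1 member at its level in WT replicate 1 (horizontal axis) and WT replicate 2 (vertical axis), as log2(FPKM + 1). The 155 entries with locus numbers from AT2G07600 to AT2G07899, in and around the insertion, are in colour, with the line of equal levels. Some coloured entries lie along the axes, present in 1 WT library and near 0 in the other. An example is AT2G07783, at 6.71 FPKM in replicate 2 and 0.129 in replicate 1.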

How the data were processed

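The 6 tables were deposited by the authors as Cuffdiff output in FPKM per entry, each setting 1 mutant library against 1 WT library. TopHat2 2.0.12, Bowtie, Cufflinks 2.2.1 and TAIR10 are named in the submitters' processing notes. The q-values, read as p-values adjusted for multiple tests, are the authors' deposited ones. Absolute depth is unknown, since the deposited FPKM carry no counts, and no interval that needs it is given. One fragment in the lowest entries was worth 0.666 times as much in mom1 replicate 1 as in its WT. In the other mutant libraries it was worth 1 to 1.13 times as much. The part of this difference in the counts past 2-fold was not tested. Ratios were taken within tables with a pseudocount of 1 FPKM. limma 3.58.1 (R 4.3.3) was fitted with an intercept alone to the 2 mom1 ratios of each entry with at least 1 FPKM in 1 of the 4 libraries, with 1 residual degree of freedom per entry, two-sided, with Benjamini-Hochberg adjustment over 20517 entries. Entries the authors marked as not fitted (1 member, AT2G13975.1) were left out. The pairing is that of the authors' tables. The labels give only replicate numbers, and the deviations of WT and mom1 libraries of 1 number correlated at 0.835 across 20517 entries, which are not independent.

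Entries were matched by locus to RefSeq's annotation of TAIR10.1. Of 1301 members alone in their interval, 933 had the same 2 ends there, and 50-base words were counted on both strands of that assembly. A run is 2 or more neighbouring members past 2-fold. The named members are the 15 highest and 5 lowest past 2-fold in both mom1 tables, those called by limma and those in runs. They also include the 5 highest and 3 lowest past 2-fold in each other table, and active genes past 2-fold in both mom1 tables. Listed genes and the 5 highest of the 155 entries with locus numbers from AT2G07600 to AT2G07899 were named too. Flanking, short and other members were added after their values were seen. Members and lists were chosen with earlier results of these data known. Alternatives tried were other pseudocounts, filters, thresholds, centring, unpaired fits and leaving out libraries. The 1 entry left out by the rule is not reported here.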

Additional observations from a re-analysis of the deposited data

Results flagged for a closer look

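AT2G13146, a transcribed pseudogene of 215 bases at 5431033 to 5431247, had opposite directions in the 2 mom1 comparisons: a log2 ratio of 1.02 in replicate 1 and of -2.01 in replicate 2. It was at 0 FPKM in WT replicate 1 and 1.03 in mom1 replicate 1, and at 3.03 in WT replicate 2 and 0 in mom1 replicate 2. The difference between the replicates was not tested.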

How the results depend on the processing

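The 4 members higher in mom1 by limma became 0 with no filter (lowest adjusted p = 0.121), 0 with no replicate block (0.147) and 0 when any 1 of the 4 libraries was left out (0.189 to 0.684). The last fits had no replicate block and take the lone library to vary like the other group. The cause was not tested. With a pseudocount of 0.1 limma called 5 and with centred ratios 4. At a pseudocount of 0.1, AT2G15800 (6.86) and AT2G15815 (5.91) passed while SQN (3.74) did not. AT2G15815 was in the fit only through mom1.

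With a pseudocount of 0.1, which counts entries far below 1 FPKM, members past 2-fold in both mom1 tables were 52 higher and 1 lower, and entries in runs were 31. The counts were then 90 higher and 15 lower in mom1 replicate 1, 77 and 33 in mom1 replicate 2, 80 and 23 in pial1/2, 76 and 24 in mom1pial2, 33 and 29 in pial2 and 55 and 24 in nrpe1. With 1 mom1 table left out, members past 2-fold were 18 to 25 higher and 5 to 8 lower. At q below 0.01 the authors' calls up were 3 in pial2 and 9 in nrpe1. Counts under 4-fold, distinct intervals, neighbours within 10 kb and centred ratios stayed within 1.5 times, and no called result changed sign. Mean mom1 ratios of genes that were not called could change sign with 1 table left out: that of LURP1 was 0.32 and was -0.53 without replicate 1, and SOT12 (0.03 and -0.15) and SEP4 (-0.01 and 0.09) are further examples.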
